A study of Homo sapiens with 6 samples.

Results

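The transcripts of WDR5 and of the enzyme complexes that methylate histone H3 at lysine 4 (H3K4) were examined in Jurkat cells, a human cell line from T-cell acute lymphoblastic leukaemia (T-ALL), after stimulation with the chemokine CXCL12. The genes were chosen by symbol: the methyltransferases KMT2A, KMT2B, KMT2C, KMT2D, SETD1A and SETD1B and the subunits WDR5, RBBP5, ASH2L and DPY30. Of these 10 genes, 9 had a probe set named in the platform annotation, 1 probe set each, out of 17687 genes named on the array. SETD1B had no named probe set and was not analysed here. All 9 had a mean signal above the limit for dim probe sets and were tested.

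There were 3 CXCL12 and 3 untreated samples, 1 array each. All 6 came from cells grown with 10% serum and then kept without serum for 90 min. The CXCL12 samples then received the chemokine at 100 ng/ml for 15 min, and the untreated samples received none. The labels call the samples of a group biological replicates but do not say whether they were separate cultures, so p-values cover only the differences among these samples, and part of that spread may be technical. The design states 1 aim, to compare expression profiles with and without CXCL12, in 1 cell line.

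H3K4 methylation marks active genes. Trimethylation sits mainly at promoters and monomethylation mainly at enhancers. Each methyltransferase works in a complex with the shared subunits WDR5, RBBP5, ASH2L and DPY30, without which the KMT2 enzymes are poorly active. KMT2A is also known as MLL1, the gene broken and fused to partner genes in some acute leukaemias. The receptor of CXCL12, CXCR4, is coupled to G proteins and is carried by T-cell leukaemia cells.

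The bases upstream of the annotated starts are shown for 3 of these genes, KMT2A as the gene with the smallest p, WDR5 as the shared scaffold and RBBP5 as the gene with the largest positive change, and for EGR1, whose transcript did rise, as a contrast. The sequences are from RefSeq on GRCh38.p14 and run 5′ to 3′ over the 250 bases before the start. Capitals mark matches, on either strand, to any of 5 motifs: the GC box GGGCGG, the ETS motif CCGGAAG, the EGR motif GCGNGGGCG, the cyclic AMP response element TGACGTCA and the CArG box bound by the serum response factor. The table held such windows for 7 of the 10 genes, and none for CD69, the other transcript that rose past the adjusted threshold. WDR5 had 4 annotated starts, and the one shown has the most GC boxes of them. The RBBP5 window holds none of the 5 motifs.
KMT2A, chr11:118436242-118436491, plus strand: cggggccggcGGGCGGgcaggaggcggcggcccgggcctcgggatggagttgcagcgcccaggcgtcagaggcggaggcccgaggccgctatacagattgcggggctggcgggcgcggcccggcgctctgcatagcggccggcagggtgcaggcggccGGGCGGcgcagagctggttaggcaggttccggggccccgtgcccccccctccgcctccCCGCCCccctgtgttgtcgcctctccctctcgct
WDR5, chr9:134136171-134136420, plus strand: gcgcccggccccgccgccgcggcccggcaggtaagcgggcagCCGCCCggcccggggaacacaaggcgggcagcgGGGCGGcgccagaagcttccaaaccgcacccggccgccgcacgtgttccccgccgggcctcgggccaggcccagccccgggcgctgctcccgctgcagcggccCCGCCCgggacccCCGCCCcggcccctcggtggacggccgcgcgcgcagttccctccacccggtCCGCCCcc
RBBP5, chr1:205121979-205122228, minus strand: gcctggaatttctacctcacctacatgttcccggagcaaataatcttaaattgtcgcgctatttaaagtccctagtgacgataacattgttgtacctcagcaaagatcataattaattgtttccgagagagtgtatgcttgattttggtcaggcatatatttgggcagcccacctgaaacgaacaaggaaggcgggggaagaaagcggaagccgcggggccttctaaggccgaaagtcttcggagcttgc
EGR1, chr5:138465229-138465478, plus strand: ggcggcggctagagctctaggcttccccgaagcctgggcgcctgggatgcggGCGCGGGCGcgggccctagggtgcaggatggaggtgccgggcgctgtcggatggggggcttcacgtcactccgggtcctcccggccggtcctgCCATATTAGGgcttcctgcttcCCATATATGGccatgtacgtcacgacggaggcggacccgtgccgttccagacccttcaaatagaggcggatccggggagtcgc
GC boxes were found in 8 of the 10 windows of the complex genes, against 42.6% of all 35116 windows in the table. The windows of the complex genes ran from 46.8% to 92% GC, against a median of 58% over all windows. The part of GC content in the count of GC boxes was not tested. CArG boxes were found in 0 of these 10 windows and in 1.16% of all windows, and the EGR1 window holds 2, which begin 105 and 83 bases before its start. The cyclic AMP response element was in 0 of the 10 windows (1.65% of all), the ETS motif in 1, at a WDR5 start (8.52%), and the EGR motif in 2, those of KMT2B and KMT2C (8.41%), where it overlaps a GC box. The complex gene windows held between 2 and 48 CpG dinucleotides, and 8 of 10 were above the median of 11 over all windows. The 10 windows share a source where they belong to WDR5, 2 of them overlap, and these matches describe letters, not binding.

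In the deposited values the arrays were alike, with 1 exception. Median log2 signals ran from 6.18 to 6.22, but normalization between arrays makes medians alike, so they do not measure quality. Over the 16086 tested probe sets the mean correlation of an array with the others was 0.987 to 0.989 for 5 arrays. For untreated replicate 1 it was 0.982. The first principal component (38.6% of the variance) placed that array at -27.8, against -5.84 to 11.6 for the others. EGR1 and CD69 were the 2 transcripts that passed the adjusted threshold (limma adjusted p = 4.52e-05 and 0.0394), and CD69 lost its call when untreated replicate 2 or any one of the CXCL12 arrays was left out (limma adjusted p up to 0.524). EGR1 averaged 7.97 ± 0.17 in CXCL12 arrays and 5.99 ± 0.11 in untreated arrays (log2 signal, SD, n = 3 each). The T cell markers CD3E and LCK averaged 11.1 and 11.4 in CXCL12 arrays and 11.2 and 11.4 in untreated arrays. All 12 markers of T cells and Jurkat cells were above the limit for dim probe sets, a mean log2 signal of 4.44 over all arrays. Of the markers of other cell types, MS4A1, LYZ and EPCAM were below it, and CD79A, KRT8, CD14, CSF1R, HBB and ALAS2 were above it. CD79A, a B cell marker, and KRT8, an epithelial one, averaged 7.93 and 7.75 in CXCL12 arrays and 7.92 and 7.69 in untreated arrays. The monocyte markers CD14 and CSF1R averaged 5.68 and 6.08 in CXCL12 arrays and 5.77 and 6.12 in untreated arrays, and the erythroid markers HBB and ALAS2 5.07 and 4.90 in CXCL12 arrays and 4.86 and 4.71 in untreated arrays. The part of such signal in the results was not tested.

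No gene of the H3K4 methyltransferase complexes changed past the threshold after CXCL12 for 15 min. KMT2A had the lowest change, -0.34 on the log2 scale or 0.791 times the untreated signal, and RBBP5 the highest, 0.18 or 1.13 times. WDR5 had a change of -0.01, with a 95% interval from 0.805 to 1.22 times. Of 9 genes, 3 had positive and 6 negative changes, 0 passed in either direction (limma adjusted p of 0.996 or 0.999 for each of the 9), and the background was 0.0124% of the 16086 tested probe sets called. At an unadjusted limma p under 0.05 there was 1 gene, KMT2A, against 4.73% of all tested probe sets (2.72% higher, 2.01% lower). With a change of at least 1.5-fold as well there were 0, against 0.211%. The median change of the 9 was -0.07, against 0.00228 over all tested probe sets, and it moved to -0.00179, -0.00782 and -0.17 when untreated replicate 1, 2 or 3 was left out. In RNA from whole cultures, a change in each cell and a change in some of the cells cannot be told apart.

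**Figure D1:**
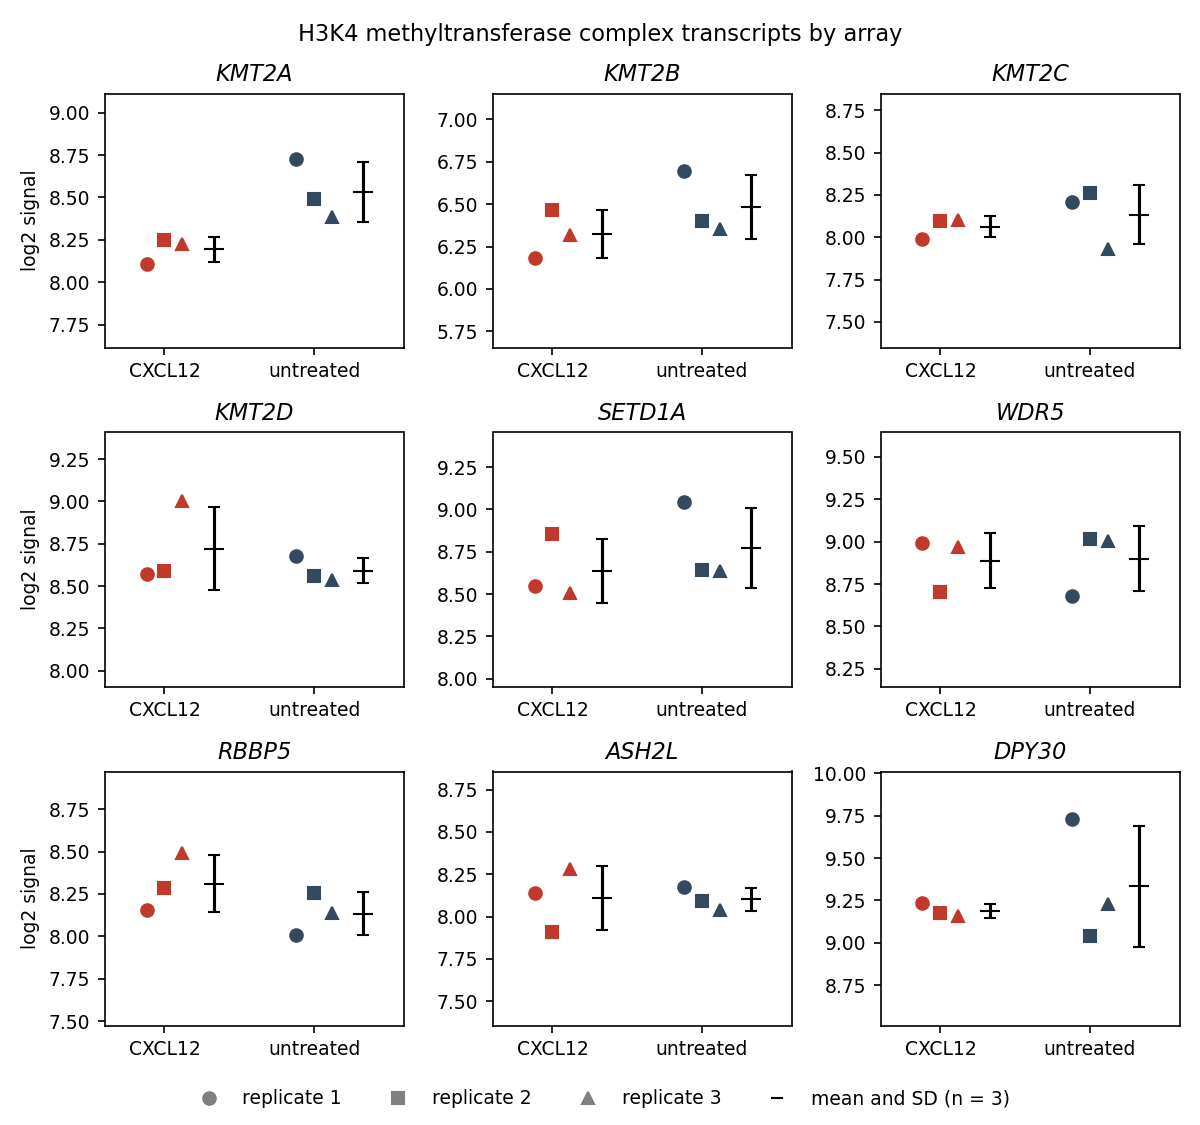
Log2 signal (y axis, 1.5 log2 units in every panel) of the 9 measured genes in the 3 CXCL12 arrays (red, left) and the 3 untreated arrays (dark blue, right), with the marker shape giving the replicate number and the bar the mean and SD of 3 arrays. The groups overlap in 8 panels, and in that of KMT2A the highest CXCL12 array is at 8.25 and the lowest untreated array at 8.38.

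The KMT2 and SETD1 enzymes carry the catalytic SET domain. KMT2A, the catalytic subunit of the MLL1 complex, had log2 signals of 8.11, 8.25 and 8.23 in CXCL12 replicates 1 to 3, against 8.72, 8.49 and 8.38 in untreated replicates 1 to 3. The groups did not overlap, all 3 CXCL12 arrays lying below every untreated array, as was the case for 4.48% of all tested probe sets. The means were 8.19 ± 0.07 in CXCL12 arrays and 8.53 ± 0.17 in untreated arrays (SD, n = 3 each). The log2 change was -0.34 (SE 0.13, 95% interval -0.62 to -0.06). It did not pass over all probe sets (limma adjusted p = 0.996, unadjusted p = 0.0215), and 342 probe sets had a smaller p. The change was -0.24 without untreated replicate 1 (limma unadjusted p = 0.0772) and -0.29 without CXCL12 replicate 1 (0.0769). In the other fits that left out 1 array it lay between -0.35 and -0.41, with unadjusted p from 0.0156 to 0.0397.

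KMT2B, the closest relative of KMT2A, which forms the same kind of complex, had 6.18, 6.47 and 6.32 in CXCL12 arrays, against 6.70, 6.40 and 6.35 in untreated arrays. The groups overlapped, and untreated replicate 1 was the highest array. KMT2B had a log2 change of -0.16 (SE 0.14, 95% interval -0.46 to 0.14, limma adjusted p = 0.996), -0.05 without untreated replicate 1 and -0.09 without CXCL12 replicate 1.

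SETD1A is the catalytic subunit of one of the SET1 complexes, which deposit much of the trimethyl mark at promoters. Its log2 signals were 8.55, 8.85 and 8.50 in CXCL12 arrays, against 9.04, 8.64 and 8.63 in untreated arrays. Untreated replicate 1 was again the highest array, and the other untreated arrays lay within the CXCL12 range. The log2 change was -0.14 (SE 0.15, 95% interval -0.46 to 0.19, limma adjusted p = 0.996), and -0.00179 without untreated replicate 1. Leaving out CXCL12 replicate 2 gave -0.25, and leaving out CXCL12 replicate 3 gave -0.07.

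KMT2C and KMT2D are the enzymes of the MLL3 and MLL4 complexes, which place the monomethyl mark at enhancers. KMT2C had 7.99, 8.10 and 8.10 in CXCL12 arrays, against 8.21, 8.26 and 7.93 in untreated arrays, so that the CXCL12 arrays lay inside the untreated range. Its log2 change was -0.07 (95% interval -0.35 to 0.21). The genome holds near-identical copies of parts of KMT2C, so its signal is uncertain. Leaving out untreated replicate 1, 2 or 3 gave -0.03, -0.00782 and -0.17, and leaving out CXCL12 replicate 1 gave -0.03. KMT2D had 8.57, 8.59 and 9.005 in CXCL12 arrays, against 8.68, 8.56 and 8.54 in untreated arrays. CXCL12 replicate 3 stood above the other 5 arrays, which lay close together. The log2 change of KMT2D was 0.13 (95% interval -0.18 to 0.43), -0.01 without CXCL12 replicate 3 and 0.20 without either of the other CXCL12 replicates. Limma adjusted p was 0.996 for both genes.

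The 4 shared subunits form the core that every one of these enzymes binds. WDR5 is a ring-shaped WD-repeat protein that holds the enzyme to RBBP5. Its log2 signals were 8.99, 8.70 and 8.97 in CXCL12 arrays, against 8.68, 9.01 and 9.01 in untreated arrays. Each group held 1 low array, CXCL12 replicate 2 and untreated replicate 1, and the other 4 arrays lay between 8.97 and 9.01. The means were 8.89 ± 0.16 in CXCL12 arrays and 8.90 ± 0.19 in untreated arrays (SD, n = 3 each). The log2 change was -0.01 (SE 0.14, 95% interval -0.31 to 0.29, limma adjusted p = 0.999). The sign turned with the array left out, from -0.12 without untreated replicate 1 to 0.08 without CXCL12 replicate 2, and also turned with quantile normalization (0.00457) and cyclic loess (0.00735). Leaving out CXCL12 replicate 1 or 3 gave -0.06 and -0.05, and leaving out untreated replicate 2 or 3 gave 0.05 and 0.04.

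RBBP5 is a second WD-repeat subunit, which pairs with ASH2L to stimulate the enzyme. It had 8.16, 8.28 and 8.49 in CXCL12 arrays, against 8.01, 8.26 and 8.14 in untreated arrays. The ranges overlapped, with CXCL12 replicate 3 the highest array and untreated replicate 1 the lowest. RBBP5 thus had a log2 change of 0.18 (SE 0.13, 95% interval -0.11 to 0.46, limma adjusted p = 0.996), 0.09 without CXCL12 replicate 3 and 0.11 without untreated replicate 1.

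ASH2L, the partner of RBBP5, had 8.14, 7.91 and 8.28 in CXCL12 arrays, against 8.18, 8.09 and 8.04 in untreated arrays. The untreated arrays lay inside the CXCL12 range. The log2 change was 0.01 (95% interval -0.27 to 0.29, limma adjusted p = 0.999), with a sign that turned under median centring (-0.01), and leaving out CXCL12 replicate 3 gave -0.08 and CXCL12 replicate 2 gave 0.11. With untreated replicate 3 left out it was -0.02, with CXCL12 replicate 1 left out -0.00549, and with untreated replicate 1 left out 0.04.

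DPY30, a small dimeric subunit that binds ASH2L, had 9.23, 9.17 and 9.16 in CXCL12 arrays, against 9.73, 9.04 and 9.23 in untreated arrays. The CXCL12 arrays lay close together inside the wide untreated range, whose top was untreated replicate 1. The SD was 0.04 in CXCL12 arrays and 0.36 in untreated arrays. The log2 change was -0.14 (SE 0.16, 95% interval -0.50 to 0.21, limma adjusted p = 0.996), 0.05 without untreated replicate 1 and -0.29 without untreated replicate 2. For 8 of the 9 genes the 95% interval stayed inside 1.5-fold in both directions, as it did for 89.9% of all tested probe sets, the exception being KMT2A at the lower end (0.652 times).

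**Figure D2:**
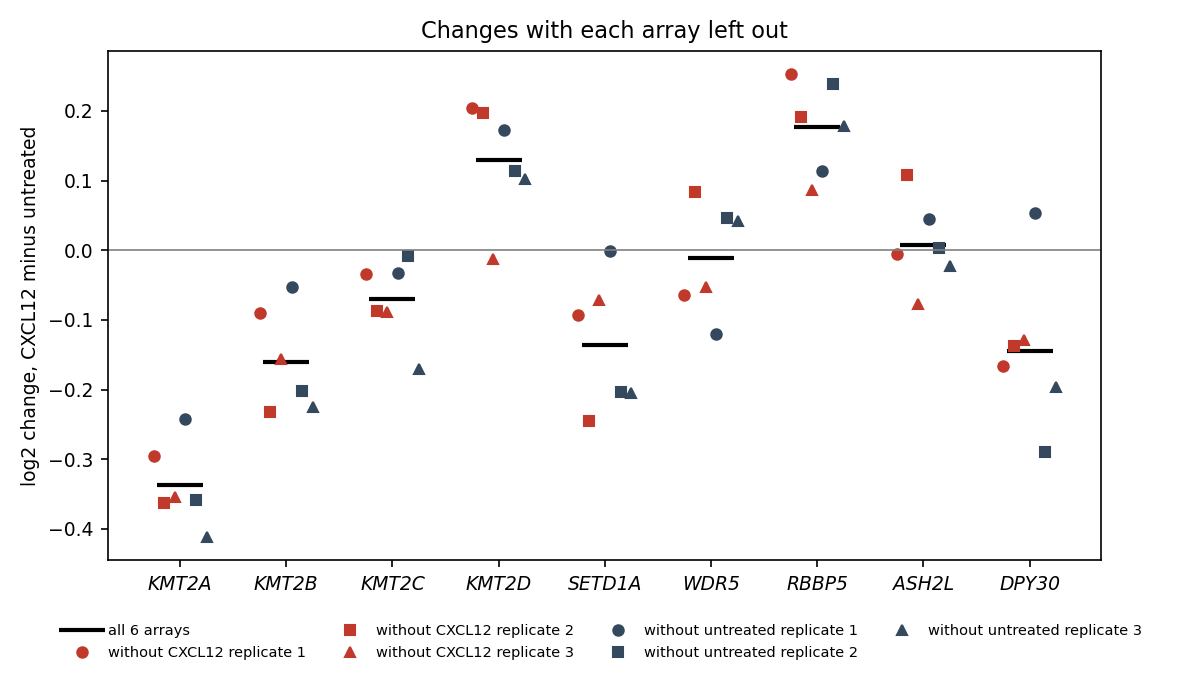
Log2 change, CXCL12 minus untreated (y axis), of the 9 genes with all 6 arrays (black bars) and with each array left out in turn (red, a CXCL12 array; dark blue, an untreated array; the shape gives the replicate number). KMT2A lies between -0.41 and -0.24, and KMT2D, WDR5, ASH2L and DPY30 cross 0. The KMT2A groups do not overlap, so leaving out an array could not turn its sign.

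Untreated replicate 1, the array that stood apart over all probe sets, was the highest of the 6 arrays for 4 of the 9 genes and the lowest for 2. CXCL12 replicate 3 was the highest for 3. Relative to the untreated mean of each gene, the 5 methyltransferases averaged -0.22, -0.05 and -0.07 in CXCL12 replicates 1 to 3, against 0.17, -0.03 and -0.13 in untreated replicates 1 to 3. The ranges overlapped, with CXCL12 replicates 2 and 3 inside the untreated range. The 4 shared subunits averaged 0.01, -0.10 and 0.11 in CXCL12 arrays, against 0.03, -0.02 and -0.01 in untreated arrays. The part of untreated replicate 1 in these values was not tested beyond the fits without it.

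**Figure D3:**
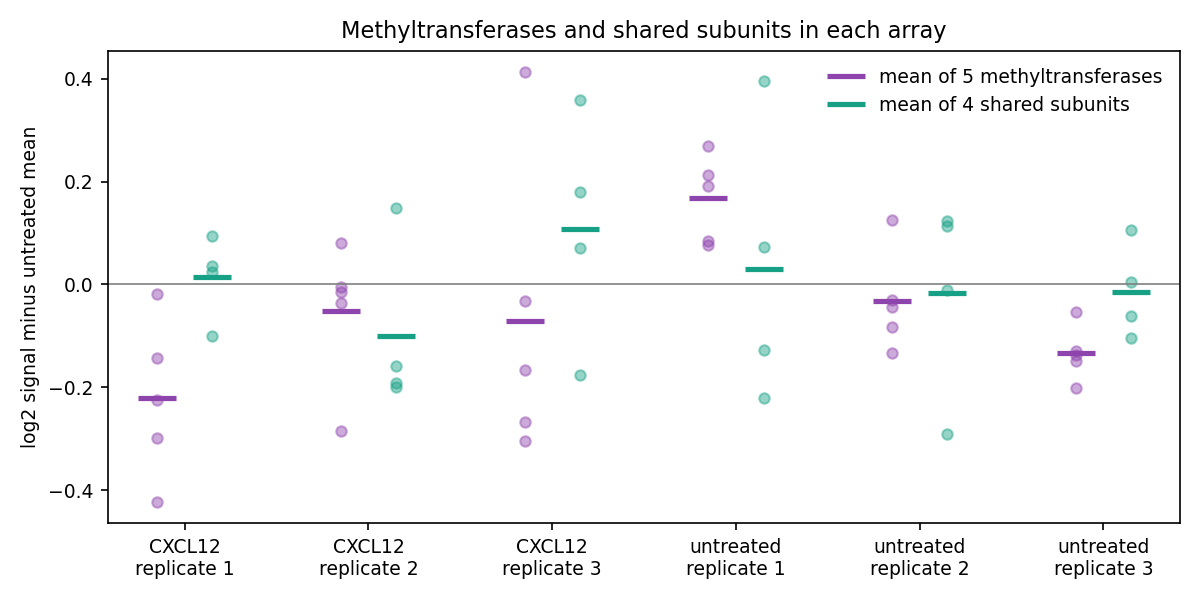
Log2 signal minus the gene's untreated mean (y axis) in each array, with a dot per gene and a bar for the mean of the 5 methyltransferases (purple) and of the 4 shared subunits (green). The methyltransferases average 0.17 in untreated replicate 1 and -0.22 in CXCL12 replicate 1, and the other 4 arrays lie between -0.13 and -0.03.

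The spread between arrays set how small a change could be seen. The residual SD of the 9 genes ran from 0.13 for KMT2C to 0.25 for DPY30, with a median of 0.17, against 0.16 over all tested probe sets. The median half-width of a 95% interval over all tested probe sets was 0.29 on the log2 scale, without adjustment for their number. The median size of a change without regard to sign was 0.14 for the 9 genes and 0.10 over all tested probe sets.

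The profile of WDR5 over the 6 arrays was set beside those of the other tested named genes by the root-mean-square difference of log2 values after each gene's mean was subtracted. The 3 nearest genes were PRAMEF15 (0.0202), KDM5B (0.0239) and EMILIN2 (0.0276). KDM5B, which encodes an H3K4 demethylase, had 9.14, 8.80 and 9.12 in CXCL12 arrays, against 8.77, 9.13 and 9.10 in untreated arrays. Like WDR5, it was low in CXCL12 replicate 2 and untreated replicate 1. These were the only arrays with negative positions on the first principal component over all tested probe sets (-5.84 and -27.8). The part of that difference between arrays in the likeness was not tested. PRAMEF15 belongs to a family of near-identical genes, so its identity is uncertain, and its signal (4.58 to 4.91) lay near the limit for dim probe sets. Among the complex genes the nearest to WDR5 were ASH2L (0.155) and RBBP5 (0.17), and the farthest was DPY30 (0.332). They ranked 3757, 4831 and 12573 by this difference among all tested named probe sets, so none was close to WDR5. With 6 arrays and 13455 named genes, small differences of this kind are easily reached.

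The subunits that belong to only some of the complexes were also examined. Of 12 listed genes, 11 had a named probe set, 3 with positive and 8 with negative changes, and 0 passed in either direction (limma adjusted p of 0.996 each, background 0.0124%), with a median of -0.06. NCOA6, a coactivator of the MLL3 and MLL4 complexes, had 7.80, 7.96 and 7.73 in CXCL12 arrays, against 8.13, 8.17 and 7.998 in untreated arrays. Its CXCL12 arrays lay below every untreated array, as for 4.48% of all tested probe sets, and the log2 change was -0.27 (SE 0.12, limma unadjusted p = 0.047). It was the 1 of 11 genes with an unadjusted p under 0.05, against 4.73% of all tested probe sets (2.01% lower), and its p ran from 0.0307 to 0.147 over the alternatives. KDM6A, an H3K27 demethylase of the same complexes, had 7.01, 6.88 and 7.07 in CXCL12 arrays, against 6.78, 6.82 and 6.57 in untreated arrays. Its CXCL12 arrays lay above every untreated array, as for 5.05% of all tested probe sets, with a log2 change of 0.26 (SE 0.12, 95% interval -0.01 to 0.53). NCOA6 and KDM6A, members of the same complexes, thus had changes of opposite sign, and neither passed. PAXIP1, a BRCT-domain protein of these complexes, had a change of -0.11, or -0.16 without CXCL12 replicate 2 and -0.06 without CXCL12 replicate 3, and PAGR1 had no named probe set.

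Menin, encoded by MEN1, and PSIP1 tether the KMT2A and KMT2B complexes to chromatin. MEN1 averaged 8.18 ± 0.13 in CXCL12 arrays and 8.22 ± 0.16 in untreated arrays (SD, n = 3 each), a change of -0.03 whose sign turned with untreated replicate 2 (0.04) or CXCL12 replicate 1 (0.0066) left out. PSIP1 had a change of -0.17 (95% interval -0.44 to 0.09). HCFC1, a host cell factor found with SET1 and MLL complexes, had 9.31, 9.40 and 9.40 in CXCL12 arrays, against 9.55, 9.69 and 9.41 in untreated arrays. Its CXCL12 arrays lay below every untreated array by a narrow margin, as for 4.48% of all tested probe sets, and the change was -0.18 (95% interval -0.45 to 0.09), or -0.11 without untreated replicate 2. Its relative HCFC2 had 0.23, or 0.06 without untreated replicate 1.

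CXXC1 and WDR82 are subunits of the SET1 complexes, the first of which binds unmethylated CpG. CXXC1 had 8.86, 8.87 and 8.85 in CXCL12 arrays, against 8.85, 9.05 and 8.84 in untreated arrays, a change of -0.06 that was 0.00843 without untreated replicate 2. WDR82 had 10.10, 9.64 and 10.06 in CXCL12 arrays, against 9.48, 10.05 and 10.03 in untreated arrays. WDR82 was low in the same arrays as WDR5, untreated replicate 1 and CXCL12 replicate 2, which had negative positions on the first principal component. The change of WDR82 was 0.08, or -0.11 without untreated replicate 1 and 0.23 without CXCL12 replicate 2. BOD1 and BOD1L1, related proteins of which BOD1L1 is known from SETD1A complexes, had changes of -0.05 and -0.24. BOD1 was 0.13 without CXCL12 replicate 2 and BOD1L1 was -0.12 without CXCL12 replicate 1 and -0.37 without CXCL12 replicate 3.

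**Figure D4:**
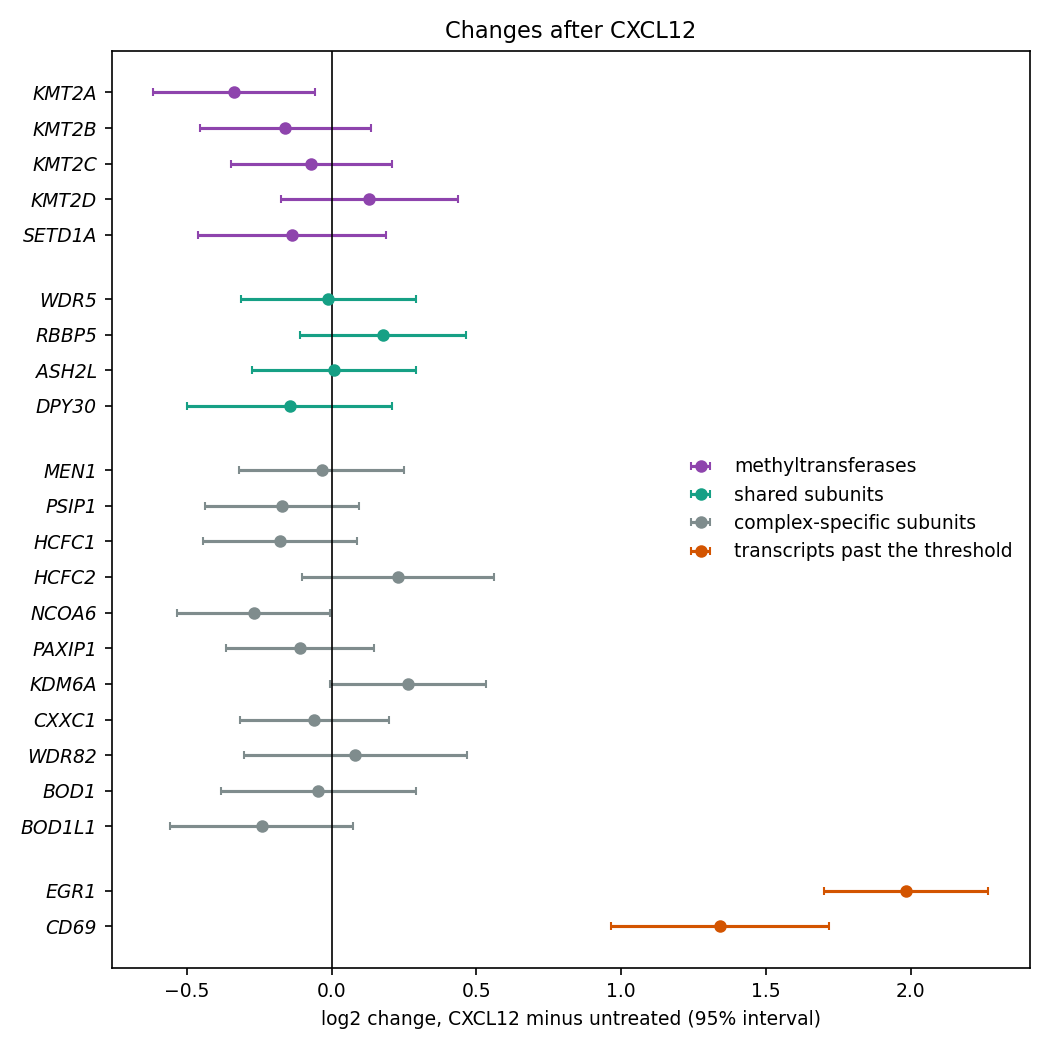
Log2 change, CXCL12 minus untreated, with its 95% interval from limma (x axis), for 5 methyltransferases, 4 shared subunits, 11 complex-specific subunits and the 2 transcripts that passed the threshold. The intervals of KMT2A and NCOA6 end just below 0, the other complex genes include 0, and EGR1 and CD69 lie at 1.98 and 1.34.

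The genes that remove, read or otherwise handle the H3K4 mark had 0 members past the threshold in each list. Of 9 measured genes of demethylases or their cofactors RCOR1, RCOR2 and RCOR3, 6 had positive and 3 negative changes (median 0.02). RCOR3, a cofactor of the demethylase KDM1A, had a change of -0.32, or -0.09 without untreated replicate 1, and KDM5A, a trimethyl-H3K4 demethylase, 0.22, or 0.05 without that array and 0.34 without untreated replicate 2. KDM1A had no named probe set. Of 5 measured further H3K4 methyltransferases and relatives, 2 had positive and 3 negative changes (median -0.05), with SETMAR at 0.24 and KMT2E, a KMT2 relative, at -0.19 (-0.05 without untreated replicate 1, -0.29 without untreated replicate 2). SMYD1 and PRDM9 were left out as dim.

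WDR5 also works outside the methyltransferases, in the NSL and ATAC acetyltransferase complexes. Of 15 measured genes of these complexes, 6 had positive and 9 negative changes (median -0.02). OGT, a glycosyltransferase of the NSL complex, had 0.28 (0.18 without untreated replicate 1), and YEATS2, a reader subunit of ATAC, had -0.24 (-0.39 without CXCL12 replicate 3, -0.14 without CXCL12 replicate 1). Of 13 measured readers of the mark, 5 had positive and 8 negative changes (median -0.01), with ING4 at -0.23 and PHF13 at 0.21, or 0.03 without untreated replicate 1 and 0.32 without untreated replicate 3. In these 4 lists, 0 of 42 genes had an unadjusted limma p under 0.05, against 4.73% of all tested probe sets.

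Genes known as targets of menin and KMT2A in leukaemia were measured in small number. Of 12 listed, 6 were tested, and all 6 had positive changes, as 50.7% of all tested probe sets did, with a median of 0.15. None of the 6 passed the threshold (background 0.0124%), and 2 of them, RUNX2 and ZEB2, had an unadjusted limma p under 0.05, against 4.73% of all tested probe sets (2.72% higher). RUNX2, a Runt-domain transcription factor, had 9.04, 9.07 and 9.11 in CXCL12 arrays, against 8.84, 8.71 and 8.57 in untreated arrays. The CXCL12 arrays lay above every untreated array, as for 5.05% of all tested probe sets, and the log2 change was 0.37 (SE 0.12, limma adjusted p = 0.996, unadjusted p = 0.01). ZEB2, a zinc-finger repressor, had a change of 0.29 (limma adjusted p = 0.996, unadjusted p = 0.0405). Over the alternatives the unadjusted limma p ran from 0.00264 to 0.0526 for RUNX2 and from 0.015 to 0.14 for ZEB2. MEIS1, another of the 6, averaged 4.66 in CXCL12 arrays and 4.40 in untreated arrays, near the limit for dim probe sets (4.44). FLT3 and MEF2C were left out as dim, and HOXA5, HOXA7, HOXA9 and HOXA10 had no named probe set, so the HOXA genes were not analysed here.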

How the data were processed

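RNA of 6 Jurkat samples was measured on Affymetrix arrays. The deposited values are log2 signals per probe set, for which the submitters' processing notes name RMA (background subtraction, normalization between arrays and probe summary) and the Transcriptome Analysis Console, so the authors' log2 scale is relative and a probe set's level is not comparable with another's. Their versions, settings and the genome build were not stated. The scanner files were not used, so detection calls and scan batches were not examined, and the number of arrays limits the precision.

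Of 21448 probe sets, 17709 had 1 gene symbol, 0 several and 3739 none. The highest-mean probe set stood for a symbol. A filter at the 25th percentile of the mean signal removed dim probe sets and kept 16086. CXCL12 was compared with untreated by limma 3.58.1 in R 4.3.3 (lmFit, eBayes, two-sided, no covariates), with Benjamini-Hochberg adjustment over all 16086 and a threshold of 0.05. The fit was tested on simulated data with independent noise and no shared difference between arrays. The simulation thus does not cover array differences such as that of untreated replicate 1. The genes, lists and rules were chosen with earlier results of these data known, and no list was tested as a set. Named genes were all genes of the complexes and of the complex-specific list, the 2 with the smallest p in every other list, EGR1, CD69 and the 3 profiles nearest to WDR5. KDM5B was one of these, and markers and genes not measured were named after their values were seen. Both groups carry replicate numbers 1 to 3 with no stated pairing. Alternatives were other filters, normalizations, priors, weights, thresholds, a replicate block and leaving out each array.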

Additional observations from a re-analysis of the deposited data

How the results depend on the processing

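With 3 arrays a side, the median interval half-width over all tested probe sets was 0.29 on the log2 scale. Changes smaller than about this could not be told from the spread, even before adjustment for the number of probe sets. The adjusted threshold asked for more than this. KMT2A at -0.34 and RUNX2 at 0.37 did not pass (limma adjusted p = 0.996 each), and CD69 passed at 1.34 (0.0394). The smallest change that could pass was not worked out. The count of complex genes past the threshold was 0 in each alternative with an adjusted p, was 0 at an unadjusted p combined with 1.5-fold and was 1 (KMT2A) at an unadjusted p under 0.05, where the complex-specific list had 1 (NCOA6) and the menin and KMT2A target list 2 (RUNX2 and ZEB2). Over all probe sets, where 2 passed, 1 passed without a filter on dim probe sets, under median centring and under cyclic loess, 4 under array weights, 34 at an unadjusted p combined with 1.5-fold, and 761 at an unadjusted p alone. Leaving out single arrays gave 1 to 2. Leaving out single arrays put the median of the complex genes between -0.171 and -0.00179, both extremes being fits without an untreated array. KMT2A kept its sign in its 16 alternatives, with limma adjusted p from 0.736 to 0.99998. Only the other normalizations could have turned that sign. The KMT2A groups did not overlap, so leaving out or weighting arrays could not, and the remaining alternatives leave the change as it is.

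Signs that turned, none past a threshold, were those of WDR5 with quantile normalization again (0.00457) and cyclic loess (0.00735), ASH2L with median centring (-0.0132) and BOD1 with array weights (0.00921). With single arrays left out, KMT2D ran from -0.012 to 0.204, WDR5 from -0.121 to 0.0832, ASH2L from -0.0779 to 0.108, DPY30 from -0.29 to 0.0534, CXXC1 from -0.0963 to 0.00843, WDR82 from -0.105 to 0.229, BOD1 from -0.153 to 0.133 and MEN1 from -0.122 to 0.0396. The causes were not tested. Of all 655 alternative values, 18 turned sign, but many could not turn. Counts have no sign, and other filters, priors, thresholds and the replicate block leave a log2 change as it is. CD69 lost its call in 7 of its alternatives (limma adjusted p up to 0.524).

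The replicate block gave 2 probe sets and 0 complex genes past the threshold and left the KMT2A change at -0.337 (limma adjusted p = 0.999). Arrays with the same number deviated from their group means with correlations of -0.189, -0.105 and 0.11 across probe sets, so the numbers were not taken as pairs. Between unlike numbers the correlations ran from -0.262 (CXCL12 replicate 2 with untreated replicate 3) to 0.276 (CXCL12 replicate 2 with untreated replicate 1). Averaging the probe sets of a symbol could not be run as an alternative, since each complex gene had 1. ZEB2 was left out by the stricter filter on dim probe sets.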
